A study of Homo sapiens with 6 samples.

Results

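The genes described here are those of Wnt signalling at the cell surface and its core inside the cell: the Wnt ligands, the Frizzled receptors, the secreted inhibitors of the SFRP and DKK families, the co-receptors LRP5 and LRP6, the scaffolds AXIN1 and AXIN2, beta-catenin (CTNNB1), and the DNA-binding factors TCF7, TCF7L1, TCF7L2 and LEF1. They were taken by name as protein-coding genes called WNT, FZD, SFRP or DKK with a number, plus the 9 other genes listed. The rule uses no measured value, but the members and the lists used below were chosen with earlier results of these data known. The rule gave 46 genes of the 57820 in the deposited table, and all 46 carried a symbol. The counts come from motor neurons made from H9, an established human embryonic stem cell line with the genotype given as WT. All libraries share the same differentiation, in which motor neuron progenitors received 0.01 μM RA and 0.1 μM SAG, an agonist of Hedgehog signalling. The 3 NG libraries were kept at normal gravity, and the 3 SMG libraries under simulated microgravity on a 2D clinostat, a device that keeps turning a culture so that the pull of gravity has no constant direction. The sources used here do not say how long the cells were turned.

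Wnt proteins are secreted, lipid-modified ligands that bind Frizzled receptors. When a Wnt joins a Frizzled to LRP5 or LRP6, the complex of Axin, APC and GSK3 that marks beta-catenin for destruction is inhibited, and beta-catenin accumulates and acts with TCF and LEF factors in the nucleus. Other Wnt signals act without beta-catenin, through receptors such as ROR2 and RYK and the planar polarity proteins, which steer cell shape and growing axons. In the developing spinal cord, Wnts from the roof plate promote dorsal fates and progenitor division, and motor neurons arise ventrally, where Wnt inhibitors such as SFRP2 are expressed.

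Library totals ranged from 16329907 to 22685870 counts. Levels are given as CPM, the count scaled to library size with TMM factors. Differences are log2 fold changes with their SE, and a positive value means a higher level in SMG (n = 3 in each group). Between libraries of a group, the chi-square of the counts divided by its degrees of freedom was 1.57 to 3.25, above the 1 of pure counting, and the pairs with NG replicate 3 gave 3.18 and 3.25. That library was the lowest of its group in 17 of the 31 members tested and the highest in 9. SMG replicate 1 was the lowest of its group in 16, and NG replicate 2 the highest of its group in 17. In bulk RNA, fewer cells of a type and less RNA per cell cannot be told apart. Among all genes tested, 35.8% passed the test described below, 17.3% as higher and 18.5% as lower, and the marker counts that follow are to be read beside these shares. Of the motor neuron markers, 5 of 7 tested were higher in SMG and 0 lower, with a summed level of 580.8 to 613.5 CPM in NG and 689 to 717 CPM in SMG. Of the progenitor markers 3 of 8 (37.5%) were lower and 0 higher (3550 to 3804 CPM in NG, 3552 to 3683 in SMG), and of the cycling markers 4 of 5 were lower and 0 higher (1094 to 1141 CPM in NG, 915 to 935 in SMG). Pan-neuronal markers had 2 higher and 2 lower of 7. Markers of the roof plate and dorsal cord, which secrete WNT1 and WNT3A in the embryo, summed to 4.02 to 5.17 CPM in NG and 4.12 to 4.91 in SMG, with LMX1A and ATOH1 at 0 in all 6 libraries. Their 1 call of 3 was LMX1B, higher at 1.35 ± 0.47 from 0.185 CPM in NG. Mesenchymal markers summed to 3.30 to 4.05 CPM over all libraries (0 calls of 3), endothelial ones to 1.57 to 2.59 (1 lower of 3, KDR), and floor plate ones to 129 to 139, nearly all from NTN1 (0 calls of 3). SOX9, SLC1A3 and FABP7 carried the glial list (1 higher and 2 lower of 4), and LIN28A and DPPA4 the stem cell list (1 lower of 2), while the means of SOX10, GFAP, POU5F1 and NANOG were below 0.5 CPM in both groups.

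A smaller share of the Wnt genes passed than of all genes tested, and this difference in share was not tested. Of the 46, 31 had enough counts to be tested, and 6 of those (19.4%) passed edgeR's quasi-likelihood test, against 35.8% of the 17803 genes tested. TCF7, FZD1 and LRP5 were higher in SMG, and WNT7B, SFRP1 and WNT7A were lower. The 3 higher and 3 lower compare with 17.3% and 18.5% of all genes. The median log2 fold change of the 31 was -0.01, with -0.0002 over all genes tested, and their median size without its sign was 0.12, with 0.16 over all genes. WNT7B was the 1 member that changed by 1.5-fold or more, and 26 of the 31 lay within 0.25 of 0 on the log2 scale. The groups did not overlap in 11 of the 31 members, where 46.3% of all genes tested did not overlap. The summed level of all 46 was 2119 to 2218 CPM in NG and 2161 to 2181 CPM in SMG.

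**Figure D1:**
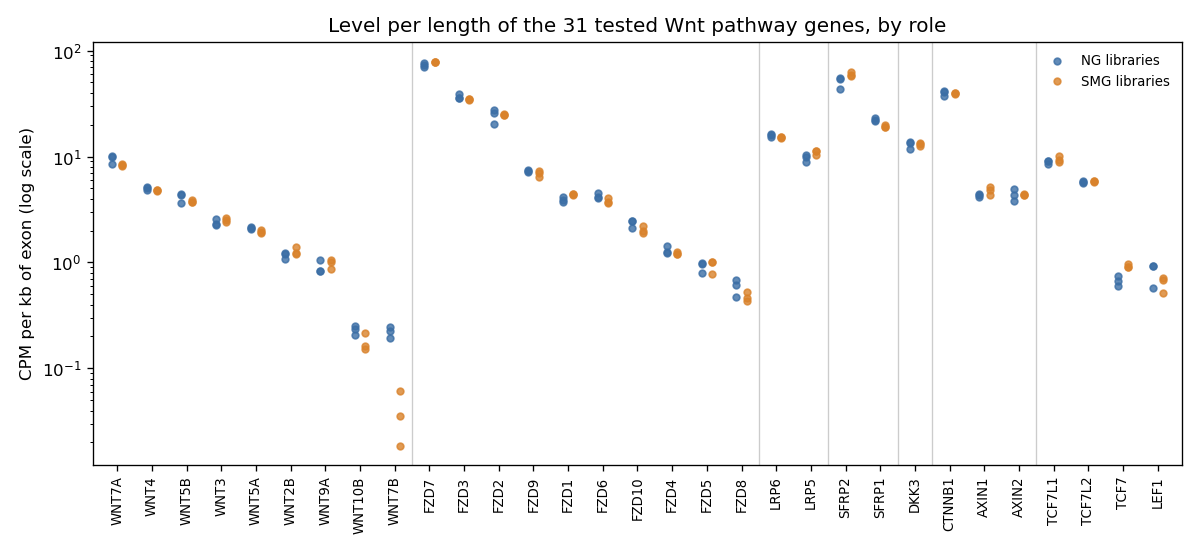
Level of each of the 31 tested members in each library, as CPM per kb of exon on a log axis, by role (grey lines part the roles: ligands, Frizzleds, co-receptors, SFRPs, Dickkopf, beta-catenin with Axins, TCF/LEF) and by level within a role; blue points are the 3 NG libraries and orange points the 3 SMG libraries. Levels run from 0.129 for WNT7B to 75.7 for FZD7 as means over libraries, and the 2 groups lie close together for every gene but WNT7B.

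Levels of different genes were compared per length, as CPM per kb of annotated exon. A few receptors and inhibitors stood above the ligands, and 7 of the 10 Frizzleds lay below the highest ligand. FZD7 had the highest mean over the 6 libraries (75.7), then SFRP2 (55.4), CTNNB1 (39.7), FZD3 (35.6), FZD2 (24.7) and SFRP1 (20.8), while the highest ligand, WNT7A, was at 8.90. The ranges of CTNNB1 and FZD3 overlapped, as did those of FZD2 and SFRP1, and those of FZD7, SFRP2 and CTNNB1 did not. With the longest transcript as the length in place of all exons, CTNNB1 took first place. DKK3 then moved from place 8 to place 5, above FZD2 and SFRP1. The order within the Frizzleds then changed only between FZD1 and FZD6, whose ranges overlap, and within the ligands only between WNT4 and WNT5B.

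Of the 19 ligands, 9 were tested, 2 of them fell and 0 rose. WNT7B fell most. Its raw counts were 24, 20 and 16 in the NG libraries and 2, 4 and 7 in the SMG libraries. As CPM these are 1.13, 1.23 and 0.975 in NG and 0.0944, 0.180 and 0.307 in SMG, so every SMG library lay below every NG library. The difference was -2.47 ± 0.38 (95% interval -3.25 to -1.69, edgeR adjusted p = 9.02e-06), or 5.54-fold lower. WNT7B (ENSG00000188064, chromosome 22) and WNT10B were the least abundant ligands tested, with overlapping ranges per length, and the fall of WNT7B rests on 16 to 24 reads per NG library and 2 to 7 per SMG library. DESeq2 gave it no adjusted p because of its low mean, and the filter of 1 CPM removed it. In every other alternative it passed.

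WNT7A, the closest relative of WNT7B and a signal of the ventricular zone, was the most abundant ligand. The NG libraries held 45.7, 45.9 and 38.6 CPM and the SMG libraries 37.15, 38.5 and 38.6 CPM. The third NG library lay at the SMG values, at 38.64 against 38.58 in the highest SMG library, and the groups barely parted. The difference was -0.19 ± 0.06 (edgeR adjusted p = 0.0106), 1.14-fold lower. The call ended without NG replicate 1 (-0.15, adjusted p = 0.101), NG replicate 2 (-0.16, 0.0552) or SMG replicate 1 (-0.17, 0.0514).

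The other tested ligands did not pass. The mean of WNT4 was 22.6 ± 0.946 CPM under NG and 21.7 ± 0.298 under SMG (SD), that of WNT5B 17.8 ± 1.85 and 16.1 ± 0.416, and that of WNT5A 15.6 ± 0.228 and 14.55 ± 0.495. WNT5A and WNT5B signal mainly without beta-catenin, and WNT5A was lower in every SMG library than in any NG library (-0.10 ± 0.08, edgeR adjusted p = 0.298). WNT5B was at -0.15 ± 0.08 (adjusted p = 0.149) and passed as lower without NG replicate 3 (-0.22, adjusted p = 0.0191) and after removal of the trend with transcript length and GC content (-0.22, 0.0159). WNT3, WNT2B and WNT9A had positive values of 0.09 to 0.12 and WNT10B, near 0.5 CPM, was at -0.39 ± 0.35. Exons of WNT2B overlap those of ST7L on the other strand, and its value is uncertain because the use of strand is not given.

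Another 10 ligands were too low to test: WNT1, WNT2, WNT3A, WNT6, WNT8A, WNT8B, WNT9B, WNT10A, WNT11 and WNT16. Together with SFRP4, SFRP5, DKK1, DKK2 and DKK4, they are the 15 members left out of the test, with totals of 1 to 48 counts over the 6 libraries. WNT1 and WNT3A, the classical roof plate ligands, had 0 to 1 and 0 to 3 counts per library. A count of 0 allows up to 3 counts, which is 0.131 to 0.185 CPM depending on the library, for counting error alone. DKK1 had 7, 4 and 5 counts in NG and 13, 10 and 9 in SMG, and SFRP4 had 8, 8 and 7 in NG and 4, 4 and 8 in SMG. As CPM both genes had groups that do not overlap, DKK1 with the higher values in SMG and SFRP4 with the lower. The raw counts of SFRP4 did overlap, and as CPM its lowest NG library was at 0.377 and its highest SMG library at 0.350. The groups of WNT1, at 0 to 1 counts per library, did not overlap as CPM either. Among all genes tested, 46.3% did not overlap. DKK1 and SFRP4 were picked out after their values were seen.

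**Figure D2:**
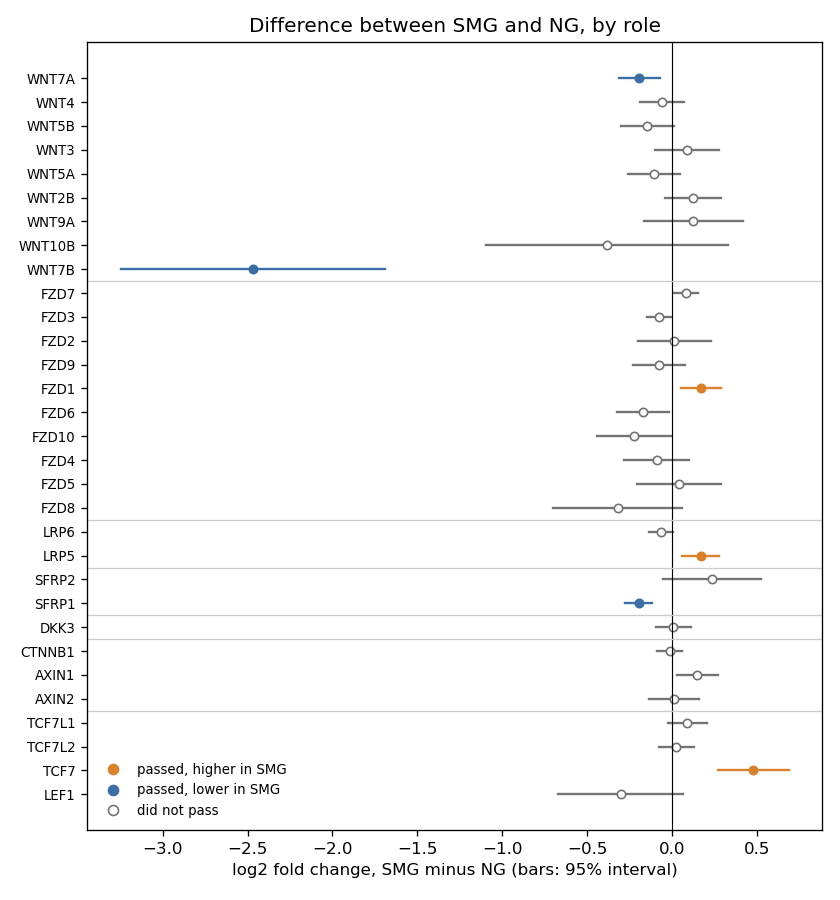
Log2 fold change, SMG minus NG, of the 31 tested members with its 95% interval, in the order of the plot of levels; filled orange and blue points passed the test as higher and lower, and open grey points did not pass. WNT7B at -2.47 stands apart from the other 30, which lie between -0.39 and 0.48.

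All 10 Frizzled receptors were tested, 1 rose and 0 fell. Frizzleds are seven-pass membrane proteins that bind Wnts through a cysteine-rich domain outside the cell. FZD1 (ENSG00000157240, chromosome 7) was at 26.1, 29.1 and 26.8 CPM in NG and 30.5, 30.4 and 31.1 CPM in SMG, with all SMG libraries above all NG libraries. The difference was 0.17 ± 0.06 (edgeR adjusted p = 0.0217), 1.125-fold. It did not pass with DESeq2 (0.17, adjusted p = 0.0758), nor without NG replicate 1 (0.14, 0.131), SMG replicate 2 (0.18, 0.0548) or SMG replicate 3 (0.16, 0.0835).

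FZD7, the most abundant Frizzled per length, was at 282.5, 297 and 272 CPM in NG and 304, 299 and 299 CPM in SMG. Its groups did not overlap, and it was just short of the threshold at 0.08 ± 0.03 (edgeR adjusted p = 0.0603, 95% interval 0.01 to 0.15). It passed as higher in 5 of 17 alternatives: without NG replicate 2 (0.12, adjusted p = 0.0133), with a filter of 1 CPM, with library size or upper quartile scaling, and over protein-coding genes alone. FZD3, the receptor that planar polarity signalling uses in axon growth, was at 493, 487 and 531 CPM in NG and 482, 470 and 483 CPM in SMG (-0.08 ± 0.03, adjusted p = 0.0879). Its groups did not overlap either, and it passed as lower without NG replicate 2 (-0.10, adjusted p = 0.0385). The 2 most abundant Frizzleds per length thus had values of opposite sign and similar size, and neither passed.

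FZD6 (-0.17 ± 0.08, edgeR adjusted p = 0.0771) also had groups that did not overlap, from 16.6 to 18.4 CPM in NG and from 14.9 to 16.4 in SMG. FZD10 was at -0.23 ± 0.11 (adjusted p = 0.0988). Both passed as lower without NG replicate 3, FZD6 at -0.20 (adjusted p = 0.0489) and FZD10 at -0.29 (0.0374). FZD8 was at -0.32 ± 0.18 and FZD9, FZD4, FZD5 and FZD2 were within 0.1 of 0. After removal of the trend with length and GC content FZD8 (-0.49, adjusted p = 0.0370), FZD9 (-0.24, 0.00677) and FZD10 (-0.31, 0.0188) passed as lower, so that the Frizzleds had 1 higher and 3 lower of 10. FZD4 shares exon sequence with PRSS23 on the other strand, and FZD6 with a low antisense gene.

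Of the 2 co-receptors, LRP5 passed and LRP6 did not, and the difference between them was not tested. LRP5 (ENSG00000162337, chromosome 11) was at 61.5, 64.0 and 54.25 CPM in NG and 63.7, 68.9 and 69.3 CPM in SMG, and the highest NG library exceeded the lowest SMG library. It passed as higher, at 0.17 ± 0.05 (edgeR adjusted p = 0.0145). The call ended without NG replicate 3 (0.11, adjusted p = 0.0644), SMG replicate 2 (0.15, 0.0768) or SMG replicate 3 (0.15, 0.0857). It also ended after removal of the trend with length and GC content, where the value was -0.0030 (adjusted p = 0.965). LRP6 was the more abundant of the pair per length (15.5 against 10.3 CPM per kb, ranges not overlapping). It was at 165, 158 and 167 CPM in NG and 157, 154 and 158 CPM in SMG. It did not pass (-0.06 ± 0.03, edgeR adjusted p = 0.154), although its groups did not overlap.

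The secreted inhibitors differed in sign. SFRP proteins carry a Frizzled-like domain that binds Wnts outside the cell. SFRP1 (ENSG00000104332, chromosome 8) fell, from 102, 109 and 105 CPM in NG to 90.4, 94.3 and 91.3 CPM in SMG, with every SMG library below every NG library. The difference was -0.20 ± 0.04 (edgeR adjusted p = 2.11e-04), 1.15-fold lower, and it passed in all 17 alternatives. SFRP2, its more abundant relative, was at 112, 110 and 87.2 CPM in NG and 120, 128 and 117.5 CPM in SMG. All SMG values were above all NG values, and the spread in NG, set by the third library, was wide. It did not pass (0.24 ± 0.11, edgeR adjusted p = 0.175, 95% interval -0.05 to 0.52). Without NG replicate 3 the value was smaller and passed (0.13, adjusted p = 0.00493). It also passed with limma-voom (0.24, adjusted p = 0.00780), without robust estimation (0.24, 0.00746), without a filter (0.25, 0.0110) and with the replicate number as a block (0.24, 8.82e-04).

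Of the Dickkopf family, whose other members block LRP5 and LRP6, DKK3 alone was tested. DKK3 is the divergent member and is expressed in many neurons. It was at 67.4, 70.1 and 60.0 CPM in NG and 64.2, 67.5 and 66.9 CPM in SMG, with overlapping groups and a difference of 0.01 ± 0.05 (edgeR adjusted p = 0.924, 95% interval -0.09 to 0.11).

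Beta-catenin and the Axins did not pass. CTNNB1 was at 488, 494 and 446 CPM in NG and 477, 464 and 473 CPM in SMG, a difference of -0.01 ± 0.04 (edgeR adjusted p = 0.797, 95% interval -0.09 to 0.06). AXIN2, a scaffold that is itself transcribed in response to beta-catenin and so serves as a readout of the pathway, was at 22.9, 25.6 and 19.7 CPM in NG and 22.6, 23.3 and 22.8 CPM in SMG. The SMG libraries lay inside the range of NG, at 0.01 ± 0.07 (edgeR adjusted p = 0.930, 95% interval -0.14 to 0.16). Across the alternatives both CTNNB1 and AXIN2 took either sign. AXIN1, the constitutive scaffold, was at 31.2, 32.5 and 33.3 CPM in NG and 32.8, 36.2 and 38.2 CPM in SMG, with overlapping groups. At 0.15 ± 0.06 it fell just outside the threshold (edgeR adjusted p = 0.0505), and it passed as higher in 8 of 17 alternatives, among them the fits without NG replicate 3 (0.17, adjusted p = 0.0236) and SMG replicate 1 (0.21, 0.0124). After removal of the trend with length and GC content it was at -0.05 (adjusted p = 0.579).

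Among the TCF and LEF factors, which bind DNA and recruit beta-catenin, TCF7 rose and the other 3 did not pass. TCF7 (ENSG00000081059, chromosome 5) was at 6.08, 6.775 and 7.44 CPM in NG and 9.11, 9.83 and 9.15 CPM in SMG, with all SMG libraries above all NG libraries. It rose by 0.48 ± 0.10 (edgeR adjusted p = 4.81e-04, 95% interval 0.27 to 0.69), 1.39-fold, and passed in all 17 alternatives at 0.39 to 0.55. The exons of TCF7 overlap those of SKP1, a ubiquitin ligase subunit, on the other strand, and reads of the pair could not be told apart without strand. SKP1 had means of 182 ± 5.41 CPM (NG) and 170 ± 4.27 CPM (SMG, both ± SD) and fell by 0.10 on the log2 scale (edgeR adjusted p = 0.0285). Whether reads of SKP1 enter the counts of TCF7 was not tested. TCF7L1, often a repressor, and TCF7L2 were the abundant factors. TCF7L1 was at 37.5, 40.2 and 40.0 CPM in NG and 39.2, 40.8 and 44.8 CPM in SMG (0.09 ± 0.06, adjusted p = 0.231). TCF7L2 was at 38.3, 38.1 and 39.3 CPM in NG and 39.8, 38.7 and 39.3 CPM in SMG (0.03 ± 0.05, adjusted p = 0.733). LEF1 was at 3.06, 4.93 and 4.998 CPM in NG and 2.74, 3.86 and 3.68 CPM in SMG, with overlapping groups (-0.30 ± 0.18, adjusted p = 0.194). Without NG replicate 1, its lowest NG library, LEF1 passed as lower (-0.53, adjusted p = 0.0154).

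**Figure D3:**
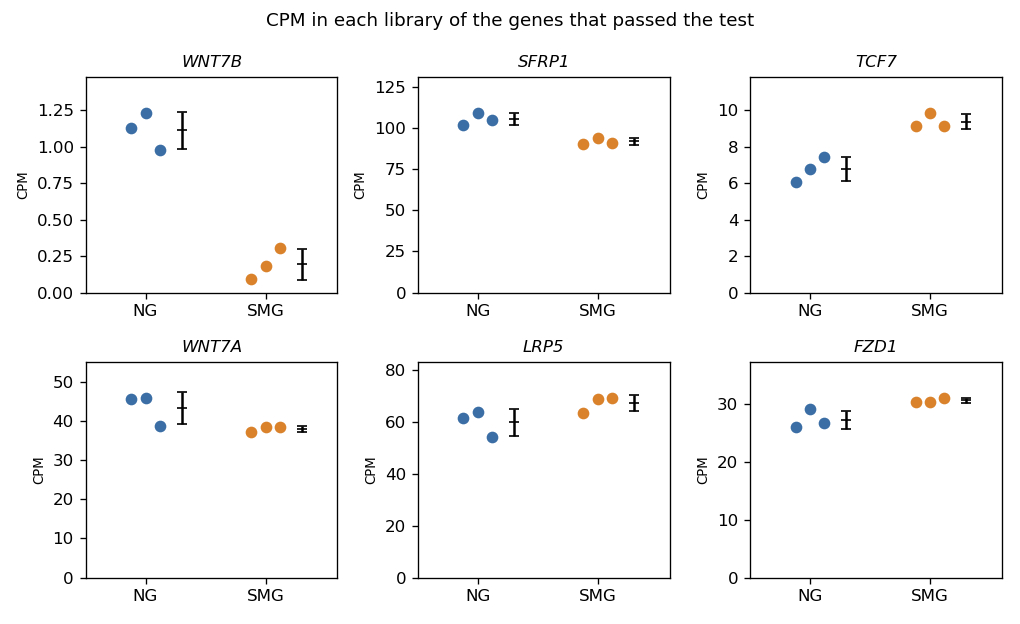
CPM in each library of the 6 members that passed the test, each on a linear axis from 0; blue points are NG libraries, orange points SMG libraries, and the black bars the mean ± SD of 3. WNT7B drops from 1.11 to 0.194 CPM as group means, while the other 5 change by 1.12-fold to 1.39-fold.

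TCF and LEF factors recognise a short motif, and the upstream sequence of members was searched on both strands for 4 forms of its core. They were CTTTGAT with the variants that end differently, namely CTTTGTT as the next form, then CTTTGTA as another, and lastly the form CTTTGAA. The 250 bases before the start were taken for the 32 members found in a RefSeq table of promoters (GRCh38.p14, a later build than the hg19 of the counts). DKK1 was the 1 member with a match (3.12% of 32), while 12.1% of all 27305 promoters of this length held one. DKK1 is shown because it holds matches, and TCF7 and WNT7A because they are a riser and a faller of the set. Capitals mark the matches, which begin 95 and 76 bases before the start of DKK1. The sequence of DKK1 is chr10:52314031-52314280 on the plus strand, that of TCF7 is chr5:134115363-134115612 on the plus strand, and that of WNT7A is chr3:13880072-13880321 on the minus strand. All are upstream of the annotated gene. They read 5′ to 3′ on the strand of the gene.
DKK1: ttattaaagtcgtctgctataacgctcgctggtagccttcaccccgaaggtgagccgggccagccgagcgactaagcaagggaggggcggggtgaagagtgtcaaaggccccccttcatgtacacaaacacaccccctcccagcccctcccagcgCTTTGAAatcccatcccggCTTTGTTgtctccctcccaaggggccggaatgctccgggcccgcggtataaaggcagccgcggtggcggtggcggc
TCF7: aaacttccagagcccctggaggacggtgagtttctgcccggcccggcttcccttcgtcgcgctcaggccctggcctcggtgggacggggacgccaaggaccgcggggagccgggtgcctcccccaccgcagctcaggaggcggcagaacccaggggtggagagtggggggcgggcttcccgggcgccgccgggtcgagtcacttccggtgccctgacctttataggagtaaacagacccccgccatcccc
WNT7A: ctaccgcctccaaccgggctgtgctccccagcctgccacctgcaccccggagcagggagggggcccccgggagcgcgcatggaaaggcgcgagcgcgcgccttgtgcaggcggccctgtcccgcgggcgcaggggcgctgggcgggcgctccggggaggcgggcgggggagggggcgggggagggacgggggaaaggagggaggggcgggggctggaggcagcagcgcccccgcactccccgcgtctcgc
The letters G and C made up 62.8% of the DKK1 window, 70.8% of that of TCF7 and 80.4% of that of WNT7A. They hold 18, 22 and 29 CpG pairs. A match is a description of the letters, and no match says only that they are not in this window.

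The other genes of the pathway came from 7 lists with 80 genes in all, 67 of them tested. Of these, 18 were higher and 12 lower in SMG (44.8% called, against 35.8% of all genes tested). Of the 18 that rose, 12 were among the 17 tested genes of the cytoplasmic complex or the 9 tested nuclear cofactors. Of the 12 falls, 8 were among the 13 tested genes listed with alternative and planar polarity receptors or the 16 tested targets. Whether the calls gather in these lists beyond their size was not tested. The counts of each list below are to be read beside the 17.3% of all genes tested that were higher and the 18.5% lower. After removal of the trend with length and GC content, 5431 of 17193 genes passed.

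Of the Dishevelled and destruction complex genes, 7 of 17 rose and 1 fell, with a median of 0.13. APC2, the neuronal relative of the tumour suppressor APC, was at 203.5, 212.6 and 176.6 CPM in NG and 289, 310 and 317 CPM in SMG, with no overlap. It rose by 0.63 ± 0.07 (edgeR adjusted p = 1.27e-04), or by 0.36 after removal of the trend with length and GC content. Casein kinases CSNK1D (0.24 ± 0.04) and CSNK1E (0.21 ± 0.03), which phosphorylate Dishevelled, and the kinase GSK3A (0.18 ± 0.05) rose less. APC, GSK3B and DVL3 were the other 3 that rose. After removal of the trend with length and GC content CSNK1D was at 0.11 and DVL3 at 0.05, where DVL3 no longer passed (adjusted p = 0.227). The median of the list was then 0.07. The list still had 7 higher and 1 lower of 17, with another gene passing as higher in place of DVL3. The poly-ADP-ribose polymerase TNKS, which marks Axin for degradation, was the 1 that fell (-0.10 ± 0.03, adjusted p = 0.0187). TNKS did not pass without NG replicate 1, SMG replicate 2 or SMG replicate 3, nor with library size scaling or without a filter, with adjusted p up to 0.129. Exons of APC2 overlap those of C19orf25, and exons of CSNK1D those of SLC16A3, on the other strand. Exons of CSNK1E overlap those of TPTEP2-CSNK1E on the same strand, where strand use could not part the reads. GSK3A and APC also overlap other genes on their own strand.

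Among nuclear cofactors 5 of 9 rose and 0 fell, with a median of 0.16. Of all genes tested, 17.3% were higher and 18.5% lower. BCL9L, which links beta-catenin to the transcription machinery, was at 33.7, 38.3 and 34.3 CPM in NG and 43.3, 45.9 and 50.5 CPM in SMG (0.40 ± 0.06). Its exons overlap those of CXCR5 and UPK2 on the other strand. The corepressors TLE3 (0.22 ± 0.04) and TLE1 (0.20 ± 0.05) and the beta-catenin inhibitor CTNNBIP1 (0.16 ± 0.05) rose as well, so that activators and repressors were among the risers. CTNNBIP1 lost its call in 6 of 17 alternatives, among them DESeq2 and the fits without NG replicate 1, NG replicate 3, SMG replicate 2 or SMG replicate 3 (adjusted p up to 0.147). After removal of the trend with length and GC content 2 of the 9 still passed as higher, BCL9L (0.19) and TLE3 (0.09), and the median was 0.08.

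The list of alternative and planar polarity receptors, whose genes are not all receptors, had 3 higher and 5 lower of 13. The tyrosine kinase receptor ROR1 was at 6.08, 7.02 and 5.91 CPM in NG and 4.30, 5.03 and 4.38 CPM in SMG (-0.47 ± 0.12, edgeR adjusted p = 0.00269). Its relative ROR2, a receptor of WNT5A, was at 12.3, 12.5 and 11.3 CPM in NG and 9.68, 9.79 and 9.94 CPM in SMG (-0.30 ± 0.09, adjusted p = 0.00842). Both kept all SMG libraries below all NG libraries and passed in all 17 alternatives. PRICKLE1 (-0.31 ± 0.10), RYK (-0.14 ± 0.05) and the proteoglycan GPC3 (-0.15 ± 0.04) also fell. RYK lost its call in 7 of 17 alternatives: with DESeq2, with library size scaling, after removal of the trend (-0.06, adjusted p = 0.410), and without NG replicate 2 (-0.09, 0.177), SMG replicate 1, SMG replicate 2 or SMG replicate 3. PRICKLE1 lost it in 4, with DESeq2 (adjusted p = 0.0883) and without NG replicate 1, SMG replicate 2 or SMG replicate 3. GPC3 lost it without SMG replicate 3 (-0.11, adjusted p = 0.0739). The planar polarity cadherins CELSR3 (0.37 ± 0.03) and CELSR2 (0.23 ± 0.03) and the scaffold SCRIB (0.37 ± 0.05) rose. After removal of the trend CELSR3 was at 0.17, SCRIB at 0.16 and CELSR2 no longer passed (0.04, adjusted p = 0.269). The list had 3 higher and 2 lower without SMG replicate 3.

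**Figure D4:**
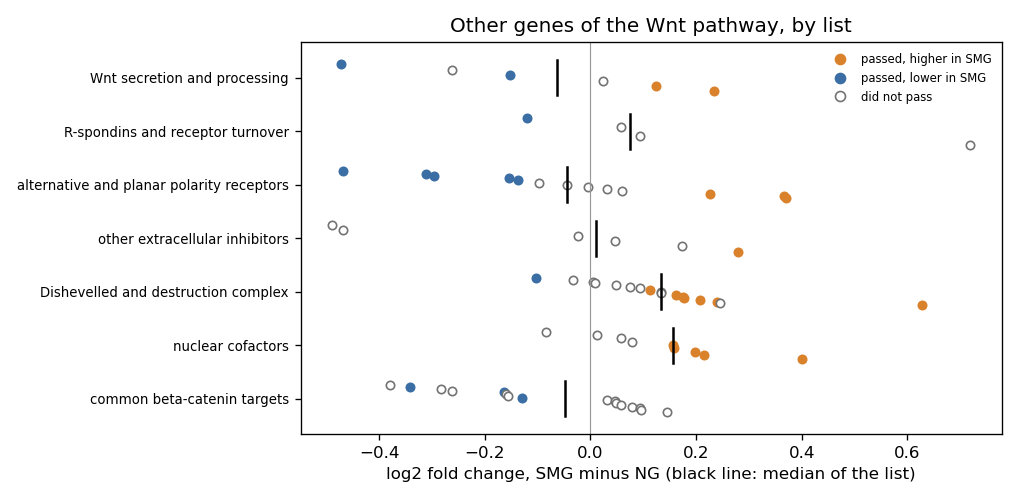
Log2 fold change, SMG minus NG, of the tested genes of 7 lists of the Wnt pathway, 1 row per list; orange and blue filled points passed the test as higher and lower, open points did not, and the black line is the median of the list. APC2 at 0.63 and BCL9L at 0.40 are the rightmost points that passed, and GPC6 and ROR1, both at -0.47, the leftmost.

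Wnt secretion and processing genes had 2 higher and 2 lower of 6. The heparan sulphate proteoglycan GPC6 was at 108.5, 109.8 and 112.5 CPM in NG and 79.9, 81.1 and 77.4 CPM in SMG (-0.47 ± 0.04, edgeR adjusted p = 1.57e-10), while GPC4 rose (0.12 ± 0.04). PORCN, the acyltransferase that adds the lipid to Wnts, was at 0.24 ± 0.08 (adjusted p = 0.0228), and WLS, which carries Wnts to the surface, at -0.15 ± 0.05 (adjusted p = 0.00974). PORCN lost its call with DESeq2, after removal of the trend (0.17, adjusted p = 0.0916), and without NG replicate 1 (0.23, 0.0618) or SMG replicate 1 (0.18, 0.119). GPC4 lost it without NG replicate 1, SMG replicate 1 or SMG replicate 2 (adjusted p up to 0.115), and WLS after removal of the trend (-0.10, 0.0627) and without SMG replicate 2 (-0.13, 0.0608). Without NG replicate 1 or SMG replicate 1, 0 genes of this list were higher. Of the 4 tested genes among R-spondins, their receptors and the ligases they control, LGR4 fell (-0.12 ± 0.04, adjusted p = 0.0124). The ligand RSPO4, named after its values were seen, had 16, 8 and 8 counts in NG and 21, 21 and 23 in SMG, and did not pass (0.72, edgeR adjusted p = 0.0585), although its groups did not overlap. LGR5 and ZNRF3 did not pass either. LGR4 no longer passed without SMG replicate 1 or after removal of the trend (adjusted p up to 0.129). Of 6 other extracellular inhibitors FRZB, a relative of the SFRPs, rose from 48.7 ± 1.83 to 59.15 ± 0.993 CPM (SD; 0.28 ± 0.05, adjusted p = 3.14e-05), and the rest did not pass.

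Of 16 tested genes that beta-catenin is known to induce in various tissues, 3 fell (18.8%) and 0 rose, with a median of -0.05. That share is near the 18.5% of all genes tested that were lower. The cyclin CCND2 was at 104, 105 and 102 CPM in NG and 79.7, 81.3 and 84.6 CPM in SMG (-0.34 ± 0.04, edgeR adjusted p = 7.65e-08). CCND1 (-0.16 ± 0.04, adjusted p = 0.00130) and the receptor TNFRSF19 (-0.13 ± 0.04, adjusted p = 0.0197) fell less. TNFRSF19 lost its call in 7 of 17 alternatives: with DESeq2, with library size scaling, without a filter, after removal of the trend (-0.07, adjusted p = 0.215), and without NG replicate 1 (-0.11, 0.107), SMG replicate 1 or SMG replicate 2. Exons of CCND2 overlap its antisense gene CCND2-AS1. Both cyclins also belong to the cell cycle, and 4 of 5 cycling markers were lower in SMG. Their part in this result was not tested. The feedback genes NKD1, NKD2, ZNRF3, NOTUM, LGR5 and APCDD1, which together with AXIN2 are used as readouts of the pathway, did not pass. Their values ran from -0.28 for NKD2 (± 0.15, edgeR adjusted p = 0.138) to 0.09. NOTUM, at -0.26 ± 0.33, rested on 10 to 15 counts per library. After removal of the trend with length and GC content the list had 2 higher and 4 lower.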

How the data were processed

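RNA from 6 libraries, 3 per group, was compared between SMG and NG. The authors deposited raw counts: for each Ensembl gene, a whole number in each of 6 sample columns. Per the submitters' processing notes the tools were HISAT2, SAMtools, featureCounts and DESeq2, on hg19. The sources used here give no version, no annotation, and neither strand use nor the handling of multi-mapped reads. Symbols came from a table of gene names and GENCODE 29, whose exon lengths, gene types and exon overlaps were also used.

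Of 57820 genes, 17803 passed edgeR's filterByExpr. They were scaled by TMM and tested together with edgeR's quasi-likelihood test (robust), with Benjamini-Hochberg adjustment over all of them and a threshold of 0.05. The SE is the absolute log2 fold change divided by the square root of F. The same code was tested on simulated data. The 17 alternatives were DESeq2, limma-voom, 3 other scalings, no filter, a filter of 1 CPM in 3 samples, no robust estimation, the replicate number as a block, removal of each library's trend with transcript length and GC content, protein-coding genes alone, and leaving out each library. All ran in R 4.3.3, with DESeq2 1.42.0, limma 3.58.1 and edgeR 4.0.16.

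The members and lists were chosen with earlier results of these data known. Genes are named by this rule: members that passed, the most abundant member per length of each role, 9 fixed members (LRP5, LRP6, AXIN1, AXIN2, CTNNB1, TCF7, TCF7L1, TCF7L2 and LEF1), and of each pathway list up to 4 passing genes, those with the greatest absolute log2 fold change among genes with a mean of at least 1 CPM. Other genes named were picked after their values were seen. The labels do not say that libraries came from separate cultures, so p-values cover the library-to-library spread alone, which may be technical. No gene of the table matched the marker symbols SPON1 and PECAM1. The result of 1 other marker list is not reported here.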

Additional observations from a re-analysis of the deposited data

How the results depend on the processing

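TCF7 and SFRP1 passed in all 17 alternatives, and WNT7B in all 15 that gave it an adjusted p. WNT7A passed in 14, FZD1 in 13 and LRP5 in 13. The count of 3 members higher in SMG was 5 with a filter of 1 CPM, with library size scaling, with upper quartile scaling, without a filter and over protein-coding genes alone, and 1 to 4 when each library was left out. The count of 3 lower was 7 after removal of the trend with length and GC content, and 2 to 6 when each library was left out. The cause was not tested. Same-numbered libraries showed no shared deviation (correlations -0.0041, 0.0178 and -0.0281), and pairs with different numbers gave -0.0432 to 0.0451. Such values cannot show whether same-numbered libraries were handled as pairs. With the replicate number as a block 4 members were higher and 3 lower, and 6333 genes were called in all, against 6376 without it.

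Some members changed sign, and none of the values of opposite sign passed. LRP5, which passed at 0.17, and AXIN1, at 0.15, did so after removal of the trend, and the others were within 0.1 of 0. After that removal AXIN1 was at -0.0476, AXIN2 at -0.0368, CTNNB1 at 0.0344, DKK3 at -0.0098, FZD2 at -0.1201, LRP5 at -0.0030 and TCF7L1 at -0.0218. Without NG replicate 3 AXIN2 was at -0.0727, DKK3 at -0.0491 and FZD2 at -0.0980. CTNNB1 was at 0.0060 with library size scaling, 0.0072 without NG replicate 1 and 0.0121 without NG replicate 2. FZD5 was at -0.0557 without NG replicate 1, -0.0138 without SMG replicate 2 and -0.0215 without SMG replicate 3. AXIN2 (-0.0028) and DKK3 (-0.0068) changed sign without SMG replicate 2, and DKK3 (-0.0008) without SMG replicate 3. When each library was left out in turn, AXIN2 ranged from -0.0727 to 0.0956, CTNNB1 from -0.0561 to 0.0121, DKK3 from -0.0491 to 0.0513, FZD2 from -0.0980 to 0.1151 and FZD5 from -0.0557 to 0.1562. Over all genes 4648 to 6385 were called. Depth limits the 15 untested members and WNT7B.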
